A study of Mus musculus with 36 samples.

Results

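The genes described here are 33 genes of glycolysis and glycogen metabolism, taken by exact gene symbol from the 46893 features of a mouse gene count table. All 33 were found. By role they comprised 7 genes of upper glycolysis, 7 of lower glycolysis, 3 lactate dehydrogenase genes, 5 of glycogen synthesis, 5 of glycogen breakdown, 4 that set the levels of the fructose phosphates and 2 glycerol 3-phosphate dehydrogenases. The counts came from poly(A)-selected RNA sequencing of 1 gastrocnemius muscle, the large calf muscle, from each of 36 wild-type male C57BL/6 mice that were 3 to 4 weeks old at the start. There were 6 groups of 6 mice. HFD-C was the sedentary control on the high-fat diet for 12 weeks. The 4 running groups were on the same high-fat diet with an in-cage running wheel. HFD-U ran without restriction at 8.3 km/day, and programmable brakes held HFD-75% to 6.3 km/day, HFD-50% to 4.2 and HFD-25% to 2.1. NFD-C was labelled with the diet NFD and with no running distance. The limits of the model are that no females and no other muscle were sampled, and that running distance was studied on the high-fat diet alone.

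Glycolysis splits glucose, or the glucose units released from glycogen, into pyruvate, and in fast muscle fibres much of that pyruvate becomes lactate. Glycogen is built by glycogen synthase and the branching enzyme and is broken down by glycogen phosphorylase, which phosphorylase kinase switches on. Muscle uses its own forms of several enzymes (Pfkm, Pgam2, Eno3, Pygm, Gys1), while other tissues rely on Pfkl, Pfkp, Pgam1 or Eno1.

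The libraries held 13060090 to 27981702 counts. The 8 skeletal muscle markers summed to between 78171 and 143609 CPM (read counts scaled to a common library size). Of these, 7 were abundant in every library, and Mylpf, the fast myosin light chain, was at 2.95 CPM at most. The lowest 2 sums came from HFD-25% mouse 6 at 78171 CPM and HFD-50% mouse 4 at 89612 CPM. Features linked to ribosomal RNA took 0.404% to 1.02% of the counts in 26 libraries, which were all 24 running mice and 2 of the 6 HFD-C mice (5 and 6), and 2.01% to 3.8% in the other 10, which were all NFD-C mice and HFD-C mice 1 to 4. This split lies along the comparison of running with HFD-C, so those comparisons are also given with HFD-C mice 5 and 6 as the only controls. Slow fibre markers (10 genes) summed to a median of 1747 CPM in HFD-C (range 274 to 2966) and 253 CPM in NFD-C (range 64.0 to 2722). In the running groups the medians lay between 1091 CPM (HFD-U) and 2113 CPM (HFD-50%). Adipocyte markers (7 genes) summed to 116 to 453 CPM over all mice. Of the 5 adipocyte genes tested in HFD-U, 3 were lower than in HFD-C before adjustment for multiple tests, where 3.31% of all genes were. The number lower was 1 in HFD-25% and 0 in both HFD-50% and HFD-75%. The median sums were 184 CPM in HFD-U and 182 CPM in HFD-C.

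The 33 genes together took 3.73% to 6.48% of all counts of a mouse, with a median of 5.2%. Per gene length, as CPM divided by the gene length in kilobases (FPKM), the most abundant in HFD-C was Aldoa, the muscle aldolase, at 7714 ± 2087 FPKM (SD, n = 6), which was rank 12 among all genes. Glycogen phosphorylase Pygm followed at 2241 ± 348 FPKM, phosphoglycerate mutase Pgam2 at 1719 ± 554, triosephosphate isomerase Tpi1 at 1409 ± 216, muscle phosphofructokinase Pfkm at 1114 ± 72.7 and muscle enolase Eno3 at 1038 ± 209 FPKM. Aldoa stood clear of Pygm in every HFD-C mouse, with 5011 FPKM in its lowest mouse against 2690 FPKM in the highest mouse for Pygm. From Pygm down to Eno3 each gene's range overlapped with that of the next, and then Eno3 stood clear of lactate dehydrogenase Ldha at 495 ± 113 FPKM. Next came pyruvate kinase Pkm at 478 FPKM, phosphoglycerate kinase Pgk1 at 387, Gapdh at 370 and glucose phosphate isomerase Gpi1 at 353 FPKM, each overlapping with its neighbour.

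The glycogen genes other than Pygm lay below these glycolytic enzymes. In HFD-C, UDP-glucose pyrophosphorylase Ugp2 was at 244 FPKM, the glycogen targeting subunit Ppp1r3c at 206, the phosphorylase kinase subunits Phkg1, Phka1 and Phkb at 147, 127 and 58.2, glycogen synthase Gys1 at 86.9 and lysosomal glucosidase Gaa at 60.1 FPKM. The lowest levels were those of the forms used mainly outside muscle, with Pgam1 at 4.62, Pfkl at 2.22, hexokinase Hk1 at 1.10 and Pfkp at 0.417 FPKM. In HFD-C, Pfkm exceeded Pfkl in every mouse, at 992 FPKM or more against 2.51 FPKM or less. The remaining genes lay between 6.99 FPKM for D-lactate dehydrogenase Ldhd and 149 FPKM for Ldhb.

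**Figure D1:**
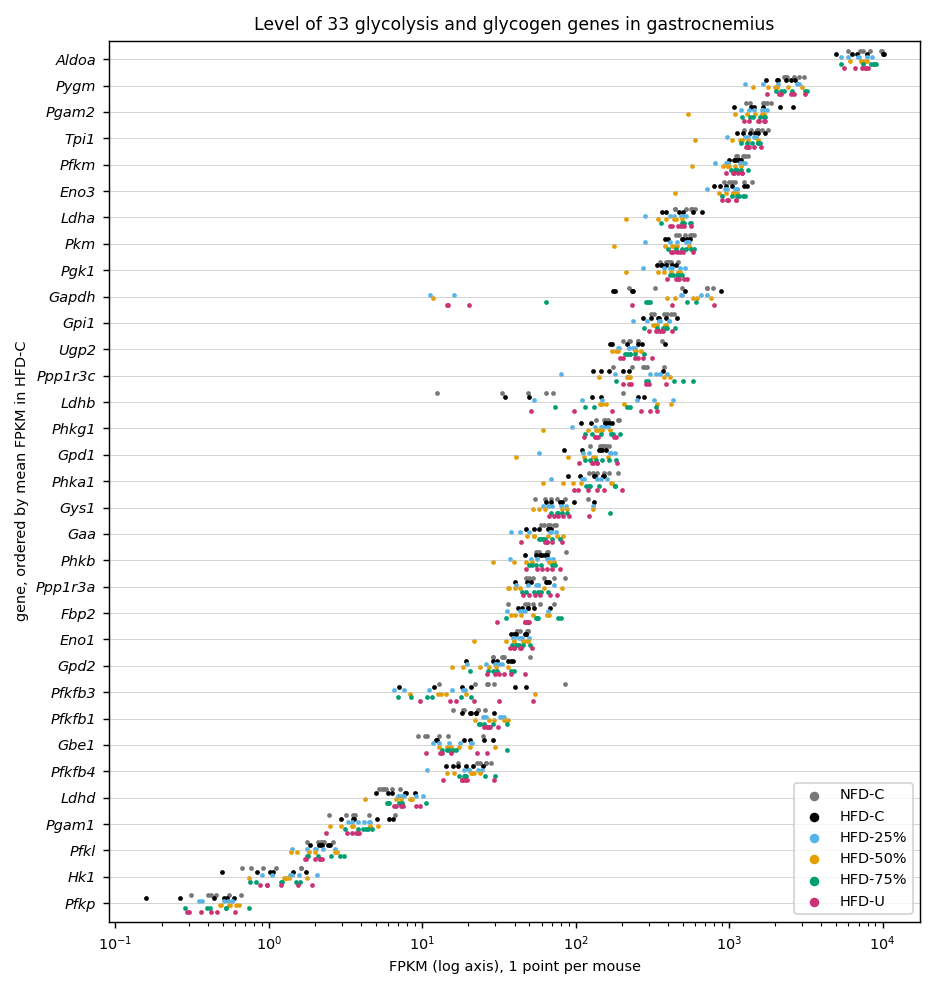
FPKM of each of the 33 genes on a log axis, with 1 point per mouse and groups by colour, ordered by the mean in HFD-C. Aldoa lies at the top (7714 FPKM in HFD-C) and Pfkp at the bottom (0.417 FPKM), groups overlap in every row, and Gapdh, Ldhb and Pfkfb3 spread most widely.

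Against HFD-C, none of the 33 genes passed an adjusted p of 0.05 in any running group (edgeR quasi-likelihood F-test, Benjamini-Hochberg over all genes of the fit), and DESeq2 also gave 0. Over all genes the edgeR test passed 1 gene in HFD-25% (0.0082%) and 0 in the other 3 running groups, where DESeq2 passed 28 in HFD-U, 160 in HFD-50%, 44 in HFD-25% and 40 for the HFD-75% mice. The study counted differentially expressed genes at an unadjusted p of 0.05. Its shorter lists used an adjusted p of 0.05 and a fold change limit. At the unadjusted limit of 0.05, 2 of the 33 genes (6.06%) differed in HFD-25%, 1 higher and 1 lower. Of the 12202 genes tested, 6.98% did (3.4% higher and 3.58% lower). The HFD-50% mice showed 1 higher gene (3.03%), against 10.7% of all genes (5.8% higher and 4.89% lower). The HFD-75% mice showed 3 genes (9.09%), 2 higher and 1 lower, against 5.47% (2.31% higher and 3.16% lower). The HFD-U mice likewise showed 3 genes (9.09%), 2 higher and 1 lower, against 5.46% (2.15% higher and 3.31% lower). These shares of the 33 genes lie on both sides of the shares of all genes. With all 24 running mice pooled, 2 genes (6.06%) differed, 1 higher and 1 lower, against 9.27% of all genes (4.15% higher and 5.12% lower), and none at the adjusted limit, which 36 of 12006 genes (0.3%) passed. A fitted curve over running distance, linear and quadratic over all 5 high-fat groups, gave 1 gene (3.03%) at the unadjusted limit against 12.2% of all genes, and none at the adjusted limit, which 82 genes (0.683%) passed. Over all 8 comparisons made, 8 of the 33 genes (24.2%) reached the unadjusted limit somewhere and 25 did not, beside 28.1% of the 11707 genes tested in all 8. In bulk muscle, fewer cells of one type and less RNA per cell cannot be told apart.

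The precision in the pooled comparison of 24 running mice with 6 HFD-C mice was such that the median standard error of the 33 log2 fold changes was 0.14, ranging from 0.10 for Eno1 to 0.68 for Gapdh. The 95% interval of 23 genes lay within 0.5 log2 units of 0. The median log2 fold change of the 33 genes was -0.05 for HFD-25% (all genes -0.01), -0.13 for HFD-50% (all genes 0.01), 0.08 for HFD-75% and 0.01 for HFD-U. In HFD-50% 23 of the 33 estimates were below 0, and in HFD-75% 24 were above 0, whatever their p. The HFD-50% median rested in part on mouse 4, whose own median over the 33 genes was -0.63 relative to the HFD-C mean, the lowest of the 36 mice. Without it the HFD-50% median was -0.05. The next lowest was HFD-25% mouse 6 at -0.48, and without that mouse the HFD-25% median was 0.03. These 2 mice were also the 2 with the lowest muscle marker sums, and the part this plays was not tested.

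**Figure D2:**
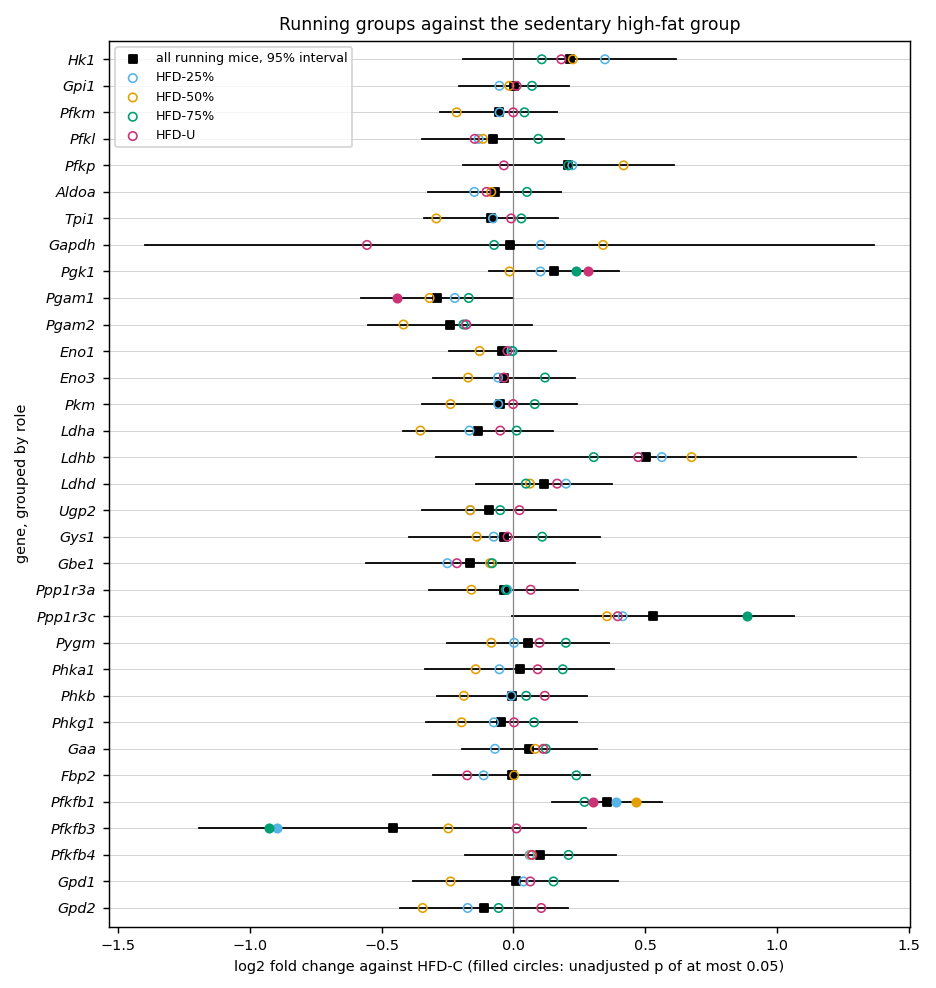
Log2 fold change against HFD-C for the 33 genes, grouped by role. Squares and lines give all 24 running mice with the 95% interval, circles give each running group, filled where the unadjusted limit was reached. Most squares sit within 0.3 of 0, and Pfkfb1 has its 4 circles and its interval above 0.

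In upper glycolysis, 0 of 7 genes differed from the 6 HFD-C mice in any running group or in the pooled comparison at the unadjusted limit. Of all genes, 5.46% (HFD-U) to 10.7% (HFD-50%) did in these comparisons. Pfkm, the rate-setting phosphofructokinase of muscle, had 3294, 3766 and 3945 CPM as the lowest, median and highest value in HFD-C. Its medians in the running groups lay between 3272 CPM (HFD-50%) and 3691 CPM (HFD-U). The pooled log2 fold change of Pfkm was -0.06, with a 95% interval of -0.28 to 0.16 and an adjusted p of 0.938. Aldoa ranged from 12127 to 24568 CPM in HFD-C (median 17765) and from 12915 to 21899 CPM in HFD-75% (median 20761). Its pooled log2 fold change was -0.07 (95% interval -0.33 to 0.18, adjusted p = 0.929). Tpi1, which interconverts the triose phosphates, had a pooled log2 fold change of -0.08 (95% interval -0.34 to 0.17, adjusted p = 0.907), and Gpi1 was at 0.001 (95% interval -0.21 to 0.21). With all 6 HFD-C mice as controls, the intervals of these 4 enzymes lay between -0.34 and 0.21. The pooled Aldoa estimate against HFD-C mice 5 and 6 alone, given below, fell outside that span. In HFD-75% all 7 estimates were above 0, from 0.03 for Tpi1 to 0.21 for Pfkp, with no p at the limit.

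The pooled values depended on which HFD-C mice served as controls. HFD-C mice 5 and 6, the only 2 with a low share of features linked to ribosomal RNA, had the 2 highest Aldoa values of their group (24568 and 24477 CPM), the 2 highest Pgam2 values (1941 and 2350 CPM) and the 2 lowest values of Hk1 (4.52 and 2.68 CPM), the hexokinase that starts glycolysis in many tissues. Against these 2 mice alone, Hk1 was higher at the unadjusted limit in every running group and in all running mice (pooled log2 fold change 0.94 ± 0.33 SE, adjusted p = 0.207). Aldoa was lower in HFD-25%, HFD-U and all running mice (pooled -0.46 ± 0.17, adjusted p = 0.215). Pgam2 was lower in every running group and in all running mice (pooled -0.70 ± 0.21, adjusted p = 0.154), as was Ldha in HFD-50%, HFD-U and all running mice (pooled -0.46 ± 0.21, adjusted p = 0.331). Ldhb was higher in HFD-50% and Fbp2 lower in HFD-U. None of these passed the adjusted limit, and with 2 controls the estimates rest on both mice. Whether the ribosomal RNA share plays a part was not tested.

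In lower glycolysis, Pgk1 and Pgam1 differed. Pgk1, which makes the first ATP of the pathway, spans bases 105230706 to 105247305 of chromosome X in GRCm39. Its lowest, median and highest values were 619, 687 and 820 CPM in HFD-C, 748, 841 and 901 for the HFD-75% mice, and 724, 857 and 970 for the HFD-U mice. Of the 6 HFD-U mice, 5 were above every HFD-C mouse, and 4 of the 6 HFD-75% mice were. Pgk1 was 1.18-fold higher in HFD-75% (log2 fold change 0.24 ± 0.11 SE, adjusted p = 0.892) and 1.22-fold higher in HFD-U (0.28 ± 0.11, adjusted p = 0.842), both at the unadjusted limit. HFD-25% and HFD-50% gave 0.10 and -0.01, and the pooled log2 fold change was 0.15 (95% interval -0.09 to 0.40). The HFD-75% call was lost without any single one of mice 2, 4, 5 and 6 or of HFD-C mice 1, 3, 4 and 5 (estimates of 0.21 to 0.24), and the HFD-U call without mouse 2 or HFD-C mouse 4 (0.25 each) or without the mice numbered 1 of both groups (0.25). Against HFD-C mice 5 and 6 alone the estimates were 0.13 and 0.17, neither at the limit.

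The other lower glycolysis result was in the form of phosphoglycerate mutase that is scarce in muscle. Pgam1 had 5.45, 7.95 and 11.9 CPM in HFD-C and 4.31, 6.56 and 7.13 CPM in HFD-U as the lowest, median and highest values. The groups overlapped, with 1 HFD-U mouse below every HFD-C mouse. Pgam1 was lower in HFD-U (log2 fold change -0.44 ± 0.20 SE, adjusted p = 0.912) and in all running mice (-0.29 ± 0.14, adjusted p = 0.532), both only just under the unadjusted limit. The HFD-U call was lost without HFD-U mouse 1, 2, 3 or 5 or HFD-C mouse 1, 2 or 6 (estimates of -0.46 to -0.32). The pooled call was lost without HFD-C mouse 1, 2 or 6 (-0.26 to -0.17). It was also lost (-0.29 to -0.27) without any HFD-U mouse, without HFD-25% mouse 2, 3 or 4, without HFD-50% mouse 1, 2, 3 or 4, and without HFD-75% mouse 2 or 3. DESeq2, RLE size factors and no minimum count each lost the pooled call but kept the HFD-U call. The replicate block and the slow fibre covariate kept the pooled call and lost the HFD-U call. Both calls were lost against HFD-C mice 5 and 6 alone and without the mice numbered 1. Pgam2, the muscle form, was 983, 1409 and 2350 CPM in HFD-C, with a pooled log2 fold change of -0.24 (95% interval -0.55 to 0.07, adjusted p = 0.669). That estimate was -0.70 against HFD-C mice 5 and 6 alone, as given above. Eno3, Eno1 and Pkm had pooled log2 fold changes of -0.04, -0.04 and -0.05, each with an interval that included 0.

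In all 6 same-numbered pairs, the HFD-U and HFD-C libraries deviated together from their group means. Differently numbered mice were not compared, so pairing by number was not tested. The HFD-U comparison was also fitted with the replicate block, which takes the mouse number as a factor. It gave 4 of the 33 genes at the unadjusted limit, against 10.2% of all genes. Pgk1 (log2 fold change 0.28) and Pfkfb1 (0.32) kept their calls, Gapdh and Ppp1r3c were added and Pgam1 (-0.41) was lost, and none passed the adjusted limit.

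Gapdh, the glyceraldehyde 3-phosphate dehydrogenase that served as the reference gene in the study's quantitative PCR, varied most between mice. It spans bases 125138815 to 125143430 of chromosome 6 in GRCm39. Gapdh ranged from 19.5 to 1529 CPM over the 36 mice, a 78.2-fold range. In HFD-C the lowest, median and highest values were 303, 406 and 1529 CPM, and in NFD-C 389, 1050 and 1368 CPM. HFD-25% mice had 19.5, 851 and 1254 CPM, HFD-50% mice 20.5, 888 and 1331, HFD-75% mice 112, 522 and 1063, and HFD-U mice 25.2, 219 and 1381 CPM. Gapdh thus fell into a low and a high set of mice. In 7 mice it was at 19.5 to 112 CPM, and in the other 29 at 303 to 1529 CPM. The 7 mice were HFD-25% mice 1 and 4, HFD-50% mouse 4, HFD-75% mouse 1 and HFD-U mice 1, 2 and 5, all of them running mice. All 7 libraries had a low share of features linked to ribosomal RNA. That set of 26 held all 24 running mice, and HFD-C mice 5 and 6 were its only sedentary mice. Running and the set can therefore hardly be told apart here, and the part of each was not tested. The libraries of these 7 mice still held 340 to 1774 Gapdh counts, so the low values did not rest on few reads. The study's quantitative PCR was scaled to Gapdh on RNA from the same samples. The values that the paper prints from it are relative to Gapdh, a measure unlike CPM, and were not compared with the counts here. Whether the Gapdh counts follow the Gapdh mRNA level was not tested.

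The low Gapdh level was not shared by Aldoa, which stood at 12915 to 19366 CPM in the same 7 mice. The 211 features described as Gapdh copies summed to 160 to 240 CPM in the 7 mice and to 114 to 373 CPM in the other 29, so the copies were within the same range in both sets. The within-group SD of Gapdh was 1.94 log2 units, against a median of 0.25 for the 2016 genes that averaged 1000 counts or more, and 3 of those genes, Gapdh among them, had an SD of at least that size. The pooled log2 fold change of Gapdh was -0.01 for running mice, with a 95% interval of -1.40 to 1.37 (adjusted p = 0.997), and no comparison was at the unadjusted limit in the fits on all mice without a block. With the replicate block, Gapdh was at the limit in HFD-U (-1.91 ± 0.71 SE, adjusted p = 0.398) and in NFD-C (0.70 ± 0.31, adjusted p = 0.714). NFD-C also reached it against HFD-C mice 1 to 4 alone (0.98 ± 0.38) and without HFD-C mouse 6. The other enzymes of the pathway varied less, and the median within-group SD of the 33 genes was 0.32 log2 units.

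**Figure D3:**
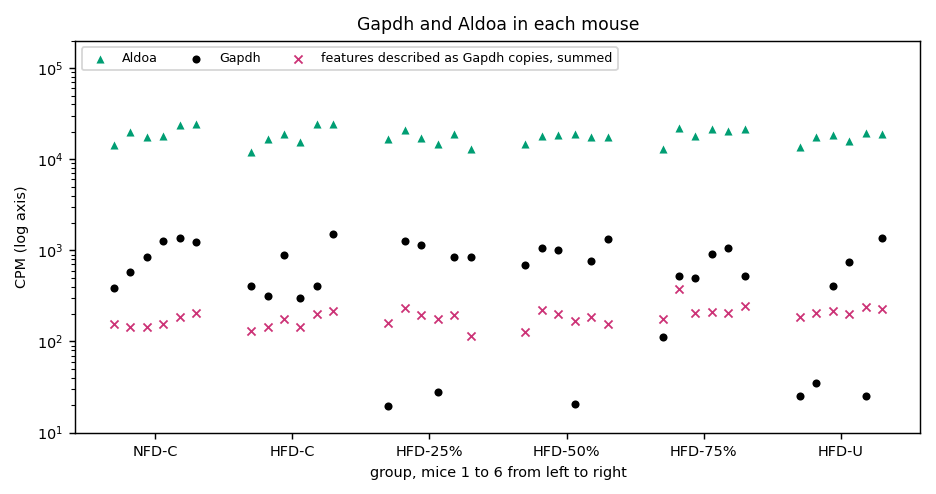
CPM of Gapdh, of Aldoa and of the 211 features described as Gapdh copies (summed), on a log axis, for each mouse by group. The 7 mice with Gapdh at 19.5 to 112 CPM belong to the running groups, and their Aldoa and copy values lie among those of the other mice. Their libraries all had a low share of features linked to ribosomal RNA, as did those of every running mouse.

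Among the lactate dehydrogenases, Ldha, the muscle form that favours lactate, and Ldhb, the form of heart and slow muscle, were followed together. Ldhb had the second widest range of the 33 genes, 16.2 to 566 CPM, or 35.0-fold. Its lowest, median and highest values were 16.2, 74.1 and 266 CPM in NFD-C, 45.0, 179 and 364 in HFD-C, and 69.5, 261 and 566 in HFD-25%. HFD-50% mice had 187, 238 and 547 CPM, HFD-75% mice 96.2, 226 and 433, and HFD-U mice 66.7, 285 and 445. The ranges of all 6 groups overlapped. The log2 fold changes of Ldhb against HFD-C were 0.56, 0.68, 0.30 and 0.47 in order of running distance, with standard errors of 0.52, 0.45, 0.46 and 0.50, and none was at the limit. Ldha gave -0.17, -0.35, 0.01 and -0.05. The share of Ldhb in the length-scaled sum of both was 22.8% ± 15.6 in HFD-C and 11.7% ± 10.2 in NFD-C (SD, n = 6). In the running groups the share was 37.1% ± 11.1 (HFD-50%), 31.7% ± 18.2 (HFD-25%), 29.0% ± 14.7 (HFD-U) and 26.5% ± 12.9 (HFD-75%).

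Ldhb followed the slow fibre markers from mouse to mouse. Over the 36 mice the Pearson r between log2 Ldhb and the mean log2 level of the 10 slow fibre genes was 0.87 and the Spearman rho 0.81, and r was 0.83 without the 2 mice farthest from the median of the slow fibre mean. Within the 26 libraries with a low share of features linked to ribosomal RNA r was 0.76, and within the other 10 it was 0.93. These values are descriptions of libraries that share their scaling. Hk1 (r = 0.46), Gbe1 (0.52) and Ldhd (0.50) went the same way. By role, r was below 0 for 5 of 5 genes of glycogen breakdown (-0.55 for Pygm to -0.44 for Gaa), 6 of 7 of lower glycolysis (lowest for Pkm at -0.49) and 4 of 7 of upper glycolysis (lowest for Gpi1 at -0.52). Glycolytic genes with r near or above 0 were Gapdh (-0.08), Pfkp (0.09), Pgam1 (0.31) and Pfkl (0.34). With the slow fibre mean as a covariate, Ldhb reached the unadjusted limit in HFD-25%, in HFD-U, in all running mice and between HFD-50% and HFD-U, and never the adjusted one.

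**Figure D4:**
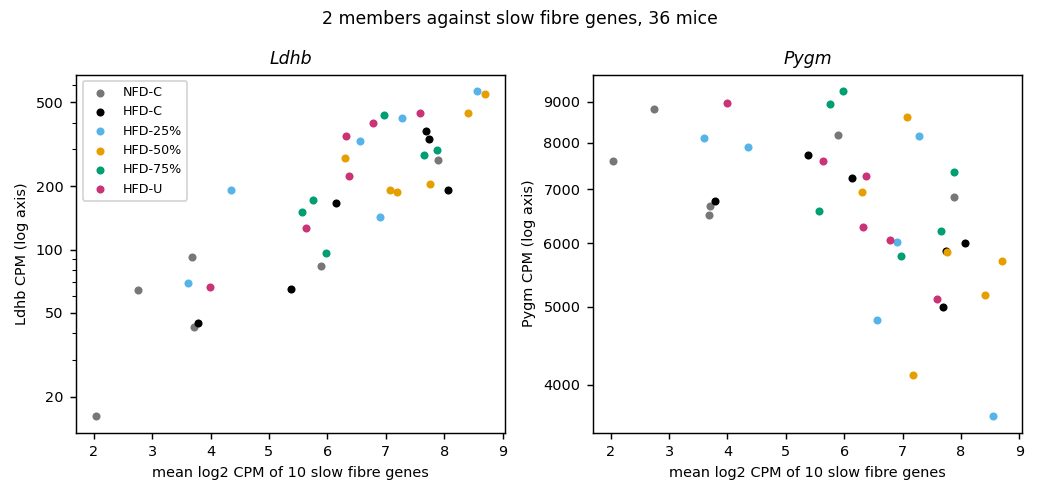
Ldhb and Pygm in CPM (log axes) against the mean log2 CPM of 10 slow fibre genes, with 1 point per mouse and groups by colour. Ldhb climbs with the slow fibre genes (r = 0.87) and Pygm declines (r = -0.55), with mice of every group along both slopes.

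In glycogen synthesis, 1 of 5 genes reached the unadjusted limit in at least 1 of the 8 comparisons, beside 28.1% of the 11707 genes tested in all 8. Ppp1r3c directs protein phosphatase 1 to glycogen, where it activates glycogen synthase, and spans bases 36709131 to 36714004 of chromosome 19 in GRCm39. Its lowest, median and highest values were 346, 494 and 994 CPM in HFD-C and 488, 980.5 and 1551 CPM in HFD-75%. HFD-25% mice had 215, 857 and 1053 CPM, HFD-50% mice 379, 594 and 1104, HFD-U mice 543, 690 and 1033, and NFD-C mice 470, 748 and 1009. In HFD-75% 3 of 6 mice were above every HFD-C mouse, and the other 3 lay within the HFD-C range. Ppp1r3c was 1.85-fold higher in HFD-75% than in HFD-C (log2 fold change 0.89 ± 0.29 SE, adjusted p = 0.624). This call held without any single mouse. HFD-25%, HFD-50% and HFD-U gave 0.41, 0.35 and 0.40, none at the limit, although the replicate block brought HFD-U to it (0.46 ± 0.14, adjusted p = 0.325). All running mice gave 0.53 (95% interval -0.01 to 1.07, adjusted p = 0.543). Against HFD-C mice 5 and 6 alone the HFD-75% estimate was 0.55, which was not at the limit.

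Gys1, glycogen synthase itself, had pooled log2 fold changes of -0.03 (95% interval -0.40 to 0.33), Ugp2, which makes the UDP-glucose that synthase uses, of -0.09 (-0.35 to 0.16), and the branching enzyme Gbe1 of -0.16 (-0.56 to 0.23). Ppp1r3a, another targeting subunit, was at -0.04 (-0.32 to 0.25). Glycogen breakdown showed 0 of 5 genes at the unadjusted limit in any of the 8 comparisons, beside 28.1% of the genes tested in all 8. Pygm had 4994, 6392 and 7721 CPM in HFD-C and medians from 5781 CPM (HFD-50%) to 6965 CPM (HFD-75%) in the running groups, with a pooled log2 fold change of 0.06 (95% interval -0.25 to 0.36, adjusted p = 0.959). The phosphorylase kinase subunits Phka1, Phkb and Phkg1 were at 0.02, -0.01 and -0.05, and Gaa at 0.06. In both HFD-75% and HFD-U all 5 breakdown genes had estimates above 0, of at most 0.20.

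Since Pgk1 and Ppp1r3c were the 2 genes higher than HFD-C in the same group, HFD-75%, with a single listed start each, the 250 bases before their starts are shown, from the RefSeq promoter table of build GRCm38.p6. Capitals mark the letters of the hypoxia response core, ACGTG or GCGTG, on either strand, where the reverse strand reads CACGT or CACGC. The Pgk1 window is chrX:106186850-106187099 on the plus strand and the Ppp1r3c window is chr19:36736605-36736854 on the minus strand, both written 5′ to 3′ along the gene.
Pgk1: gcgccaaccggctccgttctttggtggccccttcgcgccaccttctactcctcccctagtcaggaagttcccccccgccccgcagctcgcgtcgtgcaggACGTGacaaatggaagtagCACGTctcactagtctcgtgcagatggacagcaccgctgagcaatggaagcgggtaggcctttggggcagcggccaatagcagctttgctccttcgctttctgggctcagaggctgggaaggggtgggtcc
Ppp1r3c: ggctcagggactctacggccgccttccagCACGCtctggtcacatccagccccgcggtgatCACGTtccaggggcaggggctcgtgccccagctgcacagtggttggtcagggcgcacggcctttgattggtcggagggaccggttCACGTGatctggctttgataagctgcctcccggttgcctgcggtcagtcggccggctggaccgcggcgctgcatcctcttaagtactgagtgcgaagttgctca
The Pgk1 window holds 2 matches and the Ppp1r3c window 4, of which 2 overlap within CACGTG, the E-box palindrome. Over the 32 of the 33 genes with a listed window, 32 of 48 windows (66.7%) hold the core, beside 38.6% of all 32851 windows of this length. The full set of windows was not matched to the 33 genes in expression or base content. What sets the 66.7% apart from the 38.6% was not tested. A match is a string of letters, and no binding was measured here.

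The genes of the fructose phosphates held the other calls. The bifunctional enzymes Pfkfb1, Pfkfb3 and Pfkfb4 make and remove fructose 2,6-bisphosphate, the allosteric activator of phosphofructokinase, and Fbp2 is the muscle fructose bisphosphatase. Pfkfb1 spans bases 149370441 to 149426874 of chromosome X in GRCm39. It had 56, 66.6 and 90.6 CPM as the lowest, median and highest values in HFD-C. HFD-25% mice had 76.8, 89.9 and 105 CPM, HFD-50% mice 67.8, 98.3 and 112, HFD-75% mice 72.3, 75.9 and 110.0, and HFD-U mice 77.6, 83.6 and 95.9. The lowest running mouse was thus above the HFD-C median, although the ranges overlapped and 8 of 24 running mice were above every HFD-C mouse. NFD-C mice had 48.9, 64.6 and 79.3 CPM.

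Pfkfb1 was 1.31-fold higher than HFD-C in HFD-25% (log2 fold change 0.39 ± 0.13 SE, adjusted p = 0.507), 1.38-fold in HFD-50% (0.46 ± 0.15, adjusted p = 0.275) and 1.23-fold in HFD-U (0.30 ± 0.11, adjusted p = 0.79). HFD-75% gave 0.27 ± 0.14 (adjusted p = 0.936), which was not at the unadjusted limit. All running mice together gave 0.36 ± 0.10 (adjusted p = 0.149), the smallest p of the 33 genes in any comparison with HFD-C. These groups share the same 6 HFD-C mice, so the 4 values are not independent. The calls in HFD-25%, HFD-50% and all running mice held without any single mouse and in every setting tried. Without HFD-C mouse 4, the HFD-C mouse with the highest value, the adjusted p of all running mice was 0.0416. The HFD-U call was lost without the mice numbered 1 of both groups (0.24), as was that of the curve. Against HFD-C mice 5 and 6 alone the estimates were 0.59 for HFD-25%, 0.66 for HFD-50%, 0.46 for HFD-75% and 0.49 for HFD-U, all at the limit. The curve over running distance reached the unadjusted limit (adjusted p = 0.24), with a fitted peak at 58.6% of the unrestricted distance. Its linear and quadratic terms were tested together, so whether the level bends with distance was not tested. HFD-50% and HFD-U themselves differed by 0.16 (95% interval -0.11 to 0.43), which did not pass the test. Pfkfb1 overlaps Apex2 on the other strand over 735 bases, and the strand used in counting is not given in the sources used here. Apex2 had a mean of 158 counts against 1384 for Pfkfb1, and its pooled log2 fold change was 0.16, not at the limit.

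Pfkfb3, the form that responds to low oxygen and to insulin, spread 13.0-fold over the mice, from 42.0 to 545 CPM. Its lowest, median and highest values were 45.2, 125 and 305 CPM in HFD-C, 42.0, 86.2 and 122 in HFD-25%, and 44.6, 72.0 and 134 in HFD-75%. HFD-50% mice had 53.4, 88.3 and 352 CPM, HFD-U mice 61.9, 124 and 337, and NFD-C mice 82.4, 172 and 545. Most mice of HFD-25% and HFD-75% lay within the HFD-C range, with 1 mouse of each group below it. Pfkfb3 was lower than HFD-C in HFD-25% (log2 fold change -0.90 ± 0.40 SE, adjusted p = 0.701) and in HFD-75% (-0.93 ± 0.40, adjusted p = 0.875). HFD-50% gave -0.25 and HFD-U 0.01. Both calls rested on few HFD-C mice. The HFD-25% estimate was -0.59 without HFD-C mouse 3 and -0.68 without mouse 5, and the HFD-75% estimate -0.62 and -0.72, none at the limit. The calls were also lost without HFD-25% mouse 1, 2 or 4 (-0.86 to -0.76) and without HFD-75% mouse 1, 2, 3 or 4 (-0.90 to -0.80). Both calls were lost with the slow fibre covariate and without the mice numbered 1 of both groups. With DESeq2, and against HFD-C mice 5 and 6 alone, the HFD-25% call was lost and the HFD-75% call kept. RLE size factors, no minimum count and the replicate block kept both. Pfkfb4 and Fbp2 had pooled log2 fold changes of 0.10 and -0.01 with intervals that included 0.

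**Figure D5:**
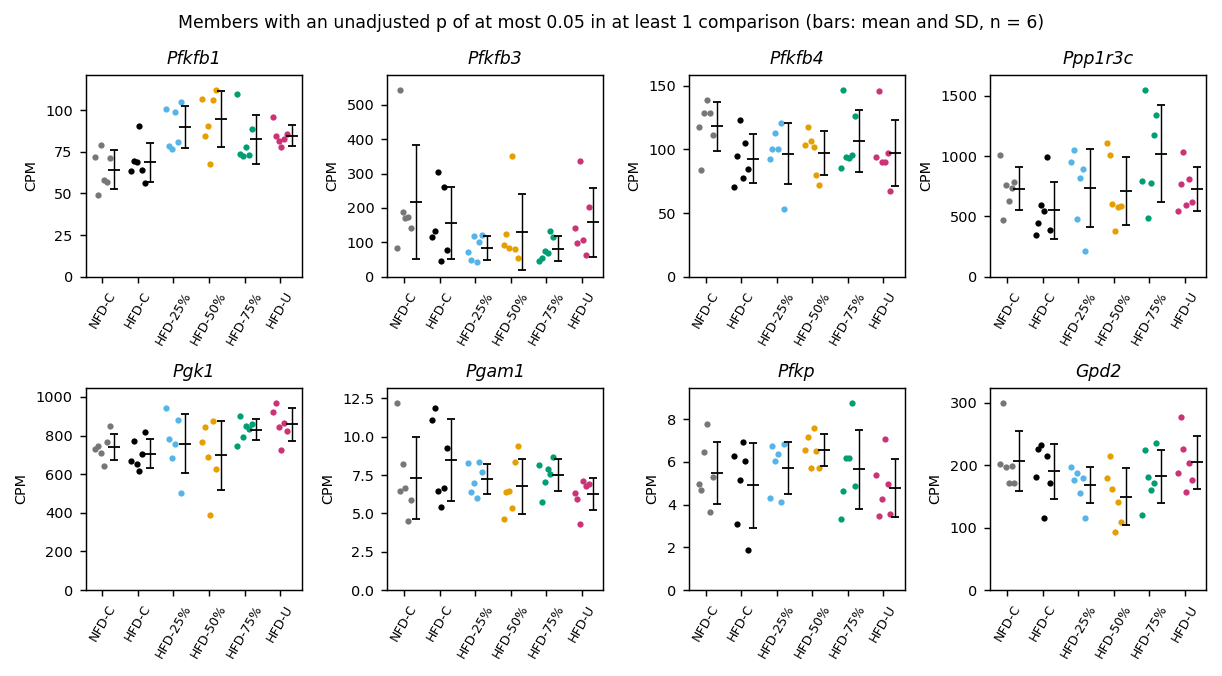
CPM of the 8 genes that reached the unadjusted limit in at least 1 comparison, with 1 point per mouse and the mean ± SD of each group beside the points (n = 6). Groups overlap in every panel, and the Pfkfb1 panel shows all running mice at 67.8 CPM or more against an HFD-C median of 66.6 CPM.

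In the glycerol 3-phosphate pair, which carries reducing power from glycolysis to mitochondria, cytosolic Gpd1 and mitochondrial Gpd2 did not differ from HFD-C in any running group. The pooled log2 fold changes were 0.01 (95% interval -0.38 to 0.40) and -0.11 (-0.43 to 0.21).

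The isoform balance was tested as shares of the length-scaled sum, with an exact two-sided permutation test over mice. Eno1 made up 3.73% to 4.22% of Eno1 and Eno3 as group means, Pgam1 0.225% to 0.312% of Pgam1 and Pgam2, and Pfkl with Pfkp 0.219% to 0.282% of the phosphofructokinases. Of 24 tests (4 shares in 6 comparisons), 0 reached the unadjusted limit, and the smallest adjusted p was 0.779 (exact permutation test).

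HFD-50% and HFD-U were compared because they differ in running distance on the same diet. Of the 33 genes 2 (6.06%) differed at the unadjusted limit, 1 higher and 1 lower in HFD-50%, against 12.4% of 11851 genes (7.08% higher and 5.34% lower), and none at the adjusted limit, which 1 gene (0.00844%) passed. Pfkp, the platelet form, had 5.70, 6.55 and 7.58 CPM in HFD-50% and 3.45, 4.61 and 7.06 in HFD-U, and was 1.37-fold higher in HFD-50% (log2 fold change 0.45 ± 0.19 SE, adjusted p = 0.355). Gpd2 had 93.3, 151 and 215 CPM in HFD-50% and 157, 195 and 276 in HFD-U, and was lower in HFD-50% (-0.45 ± 0.19, adjusted p = 0.364). In 3 of the 6 HFD-50% mice Gpd2 was below every HFD-U mouse, and in 2 of the 6 Pfkp was above every HFD-U mouse. Slow fibre markers differed between the same groups, with 7 of 10 higher in HFD-50% at the unadjusted limit, and with their mean as a covariate Gpd2 gave -0.12 and Pfkp 0.29, neither at the limit. Pfkp had a mean of 95.9 counts and overlaps Pitrm1 (530 counts) over 285 bases on the other strand. The Pfkp call was lost without HFD-50% mouse 2 or 4 or HFD-U mouse 2, 3 or 6 (estimates of 0.37 to 0.43), and the Gpd2 call without HFD-50% mouse 4, 5 or 6 or HFD-U mouse 2 or 3 (-0.44 to -0.35).

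Between the sedentary groups, NFD-C against HFD-C, 1 of the 33 genes (3.03%) was higher at the unadjusted limit, against 4.12% of 12247 genes (1.98% higher and 2.14% lower), and no gene of any kind passed the adjusted limit. Pfkfb4 had 83.7, 123 and 139 CPM in NFD-C and 70.2, 90.1 and 123 CPM in HFD-C, and was 1.28-fold higher in NFD-C (log2 fold change 0.36 ± 0.15 SE, adjusted p = 0.9996). In 3 of the 6 NFD-C mice it was above every HFD-C mouse. The call was lost without NFD-C mouse 3, 4 or 5 or HFD-C mouse 1, 4 or 6 (estimates of 0.29 to 0.33). It was also lost with the slow fibre covariate, against HFD-C mice 1 to 4 alone and without the mice numbered 1 of both groups. DESeq2, RLE size factors, no minimum count and the replicate block kept the call. Ldhb in NFD-C was at -1.03 ± 0.57 and Gbe1 at -0.51 ± 0.25, neither at the limit. Slow fibre sums had medians of 253 CPM in NFD-C and 1747 in HFD-C, with overlapping ranges. All 10 slow fibre genes had estimates below 0 in NFD-C, and 0 of the 10 reached the unadjusted limit. Without NFD-C mouse 1, whose slow fibre sum was 2722 CPM, both Ldhb and Gbe1 came under the unadjusted limit. Of the 33 estimates 25 were above 0, with a median of 0.11 beside 0.0004 over all genes.

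Genes around the pathway were counted from a list of 47 (other hexokinases, transporters, the pyruvate dehydrogenase complex and its kinases and phosphatases, and further glycogen enzymes), of which 31 or 32 could be tested. None passed the adjusted limit. At the unadjusted limit HFD-25% had 1 higher and 0 lower (3.12% of those tested), HFD-50% 1 and 2 (9.68%), HFD-75% 3 and 0 (9.68%), HFD-U 5 and 1 (18.8%), all running mice 3 and 1 (12.5%), NFD-C 0 and 0, and HFD-50% against HFD-U 3 and 3 (18.8%). The shares of all genes were, in the same order, 6.98%, 10.7%, 5.47%, 5.46%, 9.27%, 4.12% and 12.4%. Pdk4, the kinase that shuts off pyruvate dehydrogenase, had medians of 1082 CPM in HFD-C, 1168 in HFD-U, and 1843 and 2039 CPM for the HFD-75% and HFD-50% mice. Pdk4 was higher in HFD-50% (log2 fold change 0.86 ± 0.35 SE, adjusted p = 0.392) and HFD-75% (0.76 ± 0.25, adjusted p = 0.615), and its curve over distance reached the unadjusted limit (adjusted p = 0.161). Pdp1, the opposing phosphatase, had medians of 80.9 CPM in HFD-C, 62.1 in HFD-50% and 101 in HFD-U, and was lower in HFD-50% than in HFD-U (-0.76 ± 0.18, adjusted p = 0.198). Mpc1, a subunit of the mitochondrial pyruvate carrier, was higher in all running mice (0.29 ± 0.10, adjusted p = 0.269), and Bpgm, which makes 2,3-bisphosphoglycerate, was lower in HFD-50% (-0.54 ± 0.17, adjusted p = 0.256). These 4 genes were the ones with the smallest p in the list.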

How the data were processed

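The authors sequenced poly(A)-selected libraries as 150 bp paired-end reads and deposited counts per gene. Per the labels, the submitters' processing notes name HISAT2 2.0.5, featureCounts 1.5.0-p3, StringTie 1.3.3b, DESeq2 1.20.0 and edgeR 3.22.5 and the build mm10, while the chromosome accessions of the table are those of GRCm39. The strand of counting is not given in the sources used here. Features without a symbol (562) held 0.262% of the counts.

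Each comparison was fitted alone on the deposited counts with the quasi-likelihood F-test of edgeR 4.0.16 in R 4.3.3, with TMM scaling and only genes averaging 25 counts or more, two-sided, with Benjamini-Hochberg adjustment over all genes of the fit. CPM and FPKM were computed here from the counts, TMM scaling and the deposited gene lengths. DESeq2 1.42.0 was one alternative. Isoform shares were tested with exact permutation in Python 3.11.15. The fits were tested on simulated data. Depth was 13060090 to 27981702 counts per library (median 16710687.5). Replicate libraries differed by more than counting noise (chi-square per degree of freedom 13.4 to 162), and each library was 1 mouse. The main fits took no pairs, and a block by mouse number was an alternative setting in each comparison. For HFD-U against HFD-C all 6 same-numbered pairs deviated together (r = 0.144 to 0.554). In the other comparisons 1 to 5 of 6 pairs had r over 0.1.

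Full values were given for genes with an unadjusted p of at most 0.05 in at least 1 of 8 comparisons, for the 5 with the highest mean FPKM in HFD-C and for the isoform shares. The 33 genes and the other lists were chosen with earlier results of these data known.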

Additional observations from a re-analysis of the deposited data

Results flagged for a closer look

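In 198 sets of 6 mice (33 genes in 6 groups), 13 held a mouse set apart from the other 5 by a gap over Dixon's 95% critical share of the range, where chance gives about 1 in 20. HFD-75% mouse 1 held 4 of them, with Gbe1 at 107 CPM (others 40.0 to 50.0), Gys1 at 620 CPM (others 253 to 322) and Ldhd at 57.5 CPM (others 32.2 to 40.0) as the highest of its group and Ldha at 1927 CPM (others 2619 to 3014) as the lowest. NFD-C mouse 1 held 3, each the highest, with Gbe1 at 73.9 CPM (others 27.9 to 43.9), Ldhb at 266 CPM (others 16.2 to 92.6) and Ugp2 at 1130 CPM (others 634 to 786). NFD-C mouse 2 held 3, each the highest, with Gpd2 at 299.8 CPM (others 172 to 201), Pfkfb3 at 545 CPM (others 82.4 to 189) and Phkb at 789 CPM (others 506 to 598). Fbp2 was highest in HFD-25% mouse 2 at 87.9 CPM (others 47.3 to 61.5) and lowest in HFD-U mouse 1 at 40.4 CPM (others 61.8 to 66.3). Pfkfb3 was highest in HFD-50% mouse 4 at 352 CPM (others 53.4 to 123), the mouse with the lowest median over the 33 genes. No cause was tested.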

How the results depend on the processing

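Of the 33 genes, the number at the unadjusted limit of 0.05 is 3 in both HFD-75% and HFD-U, 1 in HFD-50%, 2 in HFD-25%, 2 in all running mice, 1 in NFD-C, 2 between HFD-50% and HFD-U and 1 for the curve over distance. Numbers that moved by over 1.5 times follow, each with the share of all genes at the limit in the same setting. DESeq2 gave 1 in HFD-25% (7.54%) and 2 in NFD-C (4.54%), RLE size factors 1 in all running mice (9.2%), and no minimum count 3 in NFD-C (8.59%). The replicate block gave 4 in HFD-50% (14.1%), 4 in NFD-C (6.94%), 6 between HFD-50% and HFD-U (17.9%) and 2 for the curve (17.6%). Libraries of the same set by ribosomal RNA features, with HFD-C mice 5 and 6 as controls (mice 1 to 4 for NFD-C), gave 5 in HFD-50% (9.45%), 4 in HFD-25% (11.6%), 6 in HFD-U (11.8%), 5 in all running mice (13.4%), 3 in NFD-C (4.96%) and 2 for the curve (11.6%). Leaving out the mice numbered 1 gave 1 in HFD-25% (7.58%), 0 in HFD-U (4.74%), 1 in all running mice (8.77%), 2 in NFD-C (5.25%) and 0 for the curve (13.0%). The slow fibre covariate gave 4 in HFD-50% (8.93%), 4 in all running mice (10.2%), 0 in NFD-C (2.36%) and 2 for the curve (11%). For HFD-75% all of these settings gave 2 to 4. Leaving out each mouse in turn gave 1 to 3 in both HFD-25% and HFD-75%, 1 to 2 in HFD-50%, 1 to 4 in HFD-U, 1 to 3 in all running mice, 0 to 5 in NFD-C, 0 to 3 between HFD-50% and HFD-U and 1 to 4 for the curve. At the adjusted limit the number was 0 in every setting but one, since leaving out each mouse in turn gave 0 to 1 in all running mice (Pfkfb1, without HFD-C mouse 4). The cause of these moves was not tested. Of 103 values of the 15 single calls under the other settings, 76 stayed under the unadjusted limit, 27 did not and 0 changed sign. With a mouse left out, 172 of 234 stayed, 62 did not and 0 changed sign. Between groups of 6 mice the median standard error of the 33 log2 fold changes was 0.16 to 0.21, which limits the differences that could be detected.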
